A study of Homo sapiens with 36 samples.

Results

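The mature miRNA hsa-miR-21-5p was followed through small RNA sequencing of human aneuploid cell lines. Its rows were found by name, and it is 1 of the 509 mature miRNA names listed over the 7 tables and 1 of the 205 listed in all 7. A table pools an aneuploid line with its control, with 3 libraries of each, and the 36 libraries fall into 12 groups. HCT116 is a near-diploid colorectal carcinoma line and RPE1 is a line of retinal pigment epithelium immortalised with hTERT. An asterisk marks stable expression of the histone H2B fused to GFP, and c marks a clone. The lines are named by chromosome and copy number. HCT116 5/4 has 4 copies of chromosome 5 and was set against HCT116, whereas HCT116 18/3 c2, HCT116* 3/3 c11 and HCT116* 8/3 c7 have 3 copies of chromosomes 18, 3 and 8 and were all set against the same HCT116* libraries. HCT116 18/3 c2 carries no H2B-GFP by its label, whereas its control does. Its pairing with HCT116* is taken from the sample labels. The study lists this line as derived from HCT116 without H2B-GFP and groups it with that control. RPE1 5/3 12/3 has 3 copies of chromosomes 5 and 12 and was set against RPE1. RPE1* 7/3 and RPE1* 21/3 have 3 copies of chromosomes 7 and 21, and each was set against 3 RPE1* libraries of its own, numbered 11 to 13 and 1 to 3. By the study's methods RPE1* 7/3 also gained chromosomes 9 and 12 on its own, the extra chromosome 12 of RPE1 5/3 12/3 was likewise a spontaneous gain, and lines with a clone number grew from a single cell after chromosome transfer.

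A miRNA is cut from a hairpin by Drosha and Dicer and guides Argonaute to mRNAs, mostly by pairing of its seed, the bases 2 to 8 from its 5′ end. The miRNA miR-21 is among the best known oncogenic miRNAs. It is raised in many carcinomas, colorectal carcinoma included, and represses tumour suppressors such as PDCD4. Cultured epithelial cells often hold it as a leading miRNA, and it is transcribed with or next to VMP1, a gene of autophagy.

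The hairpin gene MIR21 lies on chromosome 17 from 57918627 to 57918698 (GRCh37, plus strand), inside VMP1 (57784553 to 57919616, plus strand). It lay in an exon of all 10 VMP1 transcripts of the annotation that span it, in a UTR of 8 of them and in the coding sequence of 0. The mature arm takes the positions 57918634 to 57918655. Chromosome 17 is gained in none of the 7 lines by their labels. No other arm of this hairpin was listed in the tables used here. The sequences below, from RefSeq, show hsa-miR-21-5p, the only other listed miRNA found to share its seed, hsa-miR-100-5p as the most abundant other miRNA of every table, and hsa-let-7i-5p, which came after these in 4 tables, with the seed in capitals.
hsa-miR-21-5p: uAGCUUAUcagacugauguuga
hsa-miR-590-5p: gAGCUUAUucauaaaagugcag
hsa-miR-100-5p: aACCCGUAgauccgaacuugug
hsa-let-7i-5p: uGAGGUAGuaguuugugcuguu

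Each of the 4 is 22 bases long. The seed of hsa-miR-21-5p is shared only by hsa-miR-590-5p, also among all 2370 mature names of the RefSeq table, and beyond the seed these differ, with an edit distance of 10 over their length. A sequence was found for 416 of the 509 names, which held at least 97.3% of the summed mean in every table. Among these the closest to hsa-miR-21-5p was hsa-miR-4639-5p at an edit distance of 7, whereas some members of the let-7 family are at a distance of 1 from each other. Thus hsa-miR-21-5p had no near-identical partner among the miRNAs compared.

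The level of a miRNA is given here as the authors' mean of normalised read counts over the 6 libraries of a table, and its share is that mean divided by the sum of all means of the table. The means pool line and control, values of single libraries were not analysed here, and no SD, n or test belongs to them. Depth per library is therefore unknown, and whether hsa-miR-21-5p was higher or lower in a line than in its control was not examined. The sums of the means ran from 5556870 in HCT116 5/4 to 11221232 in RPE1* 7/3. The means are on a scale of their own in each table, and the comparisons below rest on shares and on ratios within a table. Where means of several tables are printed, they show the level within each table only. Reads of different miRNAs can be captured with different efficiency, so a share of reads is not a share of molecules. Few of the 205 names listed in all 7 tables were 3p arms. A share therefore refers to the listed names and not to all miRNAs of the cells.

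The miRNA hsa-miR-21-5p was the most abundant miRNA in 6 of the 7 tables and the second in the remaining table, RPE1* 7/3. In HCT116* 3/3 c11 its mean was 4397036 normalised reads, or 49.2% of the sum. HCT116* 8/3 c7 followed with 3840734, or 49.0%. The table of HCT116 5/4 had 2552344, or 45.9%, and that of HCT116 18/3 c2 had 3438126, or 43.2%. All 4 HCT116 tables thus lay between 43.2% and 49.2%.

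The RPE1 tables came after these in the order of the shares. In RPE1* 21/3 the mean was 3474719, or 43.1%. RPE1 5/3 12/3 had 3578031, or 39.3%. RPE1* 7/3 was the lowest with 3740716, or 33.3%. The highest share was 1.47 times the lowest, a range of 15.8 percentage points. Neighbours in this order lay between 0.0925 points (HCT116 18/3 c2 and RPE1* 21/3) and 5.93 points (RPE1 5/3 12/3 and RPE1* 7/3) apart, and with no spread over libraries none of these gaps could be tested.

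**Figure D1:**
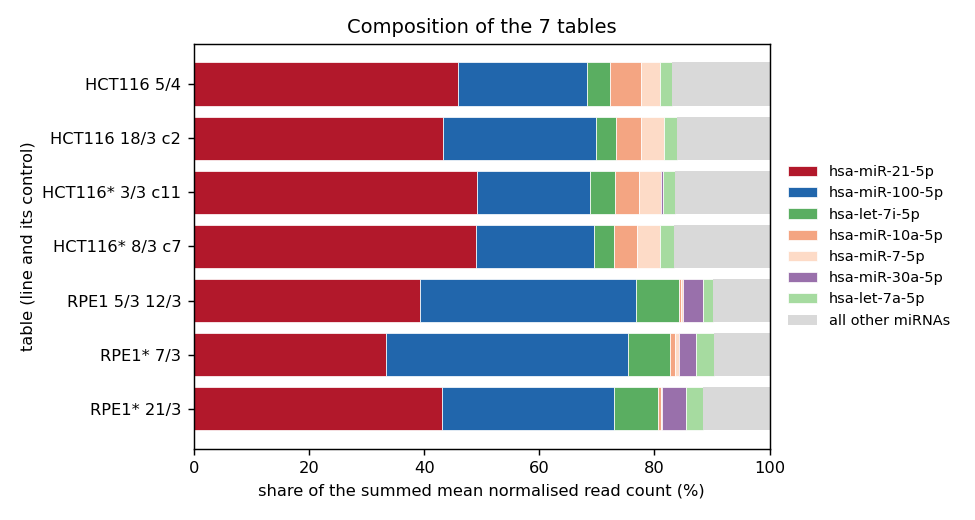
Share of the summed mean normalised read count (x axis, %) taken by hsa-miR-21-5p, by the other miRNAs that reached the first 5 places of any table, and by all others, for the 7 tables (y axis, each pooling a line and its control). The bar of hsa-miR-21-5p runs from 33.3% in RPE1* 7/3 to 49.2% in HCT116* 3/3 c11.

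The HCT116 tables had a median share of 47.5% and the RPE1 tables one of 39.3%, a difference of 8.20 points. With HCT116 18/3 c2 as the single table for the HCT116* controls it was 5.31 points. The ranges of both cell lines did not overlap, but the lowest HCT116 table lay only 0.0925 points above the highest RPE1 table. No test was made, since 3 of the 4 HCT116 tables hold the same control libraries. The pattern is also common, as 98 of the 205 miRNAs listed everywhere (47.8%) had a higher share in every HCT116 table than in every RPE1 table, while 22 had a lower one and 85 overlapped. The position of hsa-miR-21-5p between the cell lines is therefore not particular to it. Within the 3 tables on the HCT116* libraries the shares spanned 5.93 points although their control libraries are the same, and within the RPE1 tables they spanned 9.79 points.

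The cell line labels were checked by marker miRNAs. Of 7 listed miRNAs of colon epithelium, which include hsa-miR-192-5p and the miR-200 family, all 7 were listed in each HCT116 table and 3 or 4 in the RPE1 tables. Their summed share was 0.202% to 0.316% in HCT116 and 0.0192% to 0.0251% in RPE1 tables. In the HCT116 tables most of this sum was hsa-miR-200a-5p, with means of 6323 to 22387, which in the RPE1 tables was listed only in RPE1* 21/3, at 4.70. Of the listed colon markers 0 were 3p arms, so the miR-200 family enters this sum only by its 5p arms. Not all markers followed the labels, as hsa-miR-194-5p had a slightly lower median share in the HCT116 than in the RPE1 tables (-0.05 on the log2 scale). The means of hsa-miR-215 were 45.4 to 132 in the HCT116 and 50.4 to 72.6 in the RPE1 tables, but such means are not on a shared scale. The marker of pigment epithelium hsa-miR-204-5p had means of 3458 to 16266 in the RPE1 tables and of 18.4 to 40.3 in the HCT116 tables. The second one, hsa-miR-211-5p, was listed only at low means, of 5.07 in RPE1 5/3 12/3, 22.2 in RPE1* 7/3 and 2.36 in HCT116* 8/3 c7. The lowest listed mean of the last was 2.14.

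The closest in level was hsa-miR-100-5p, a member of the miR-99/100 family that is encoded in an intron of the noncoding MIR100HG on chromosome 11 (122022937 to 122023016, minus strand). In the HCT116 tables hsa-miR-21-5p exceeded it 1.62-fold in HCT116 18/3 c2, 2.05-fold in HCT116 5/4, 2.39-fold in HCT116* 8/3 c7 and 2.51-fold in HCT116* 3/3 c11. In the RPE1 tables both were closer, with ratios of 1.44 in RPE1* 21/3, 1.05 in RPE1 5/3 12/3 and 0.791 in RPE1* 7/3. RPE1* 7/3 was the only table with a ratio under 1, with a mean of 4728513 for hsa-miR-100-5p.

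**Figure D2:**
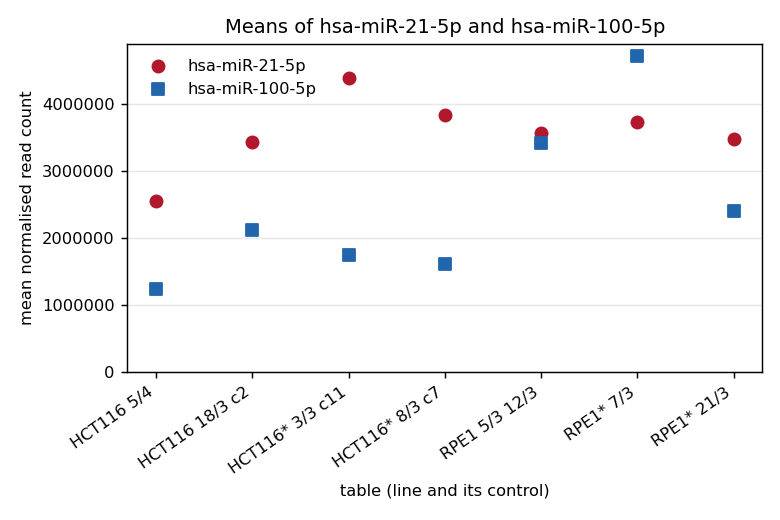
Mean normalised read count (y axis) of hsa-miR-21-5p (circles) and hsa-miR-100-5p (squares) in each table (x axis), where a point is the authors' mean over the 6 libraries of a line and its control. The circle lies above the square in every table but RPE1* 7/3, and means of different tables are not on a shared scale.

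Together these miRNAs made up 68.3% to 69.9% of the sum in the HCT116 tables and 73.0% to 76.8% in the RPE1 tables. Their summed share thus varied less than the share of either, and their shares stood in exactly opposite orders over the 7 tables (Spearman rho of -1, Pearson r of -0.96 on log2 shares). Both are parts of the same sum and 3 tables hold the same control libraries, so this is given as a description. When hsa-miR-100-5p was left out of the sum, hsa-miR-21-5p made up 57.6% to 62.9% of what remained, with RPE1* 7/3 lowest and RPE1 5/3 12/3 highest.

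The next miRNAs were lower by several times. The let-7 member hsa-let-7i-5p (chromosome 12, 62997466 to 62997550, plus strand), of a family known to repress growth-promoting genes such as RAS and HMGA2, was exceeded 11.3-fold to 14.0-fold in the HCT116 tables and 4.57-fold to 5.72-fold in the RPE1 tables. Its gene lies on chromosome 12, which is gained in RPE1* 7/3 and RPE1 5/3 12/3, and its share was 7.29% and 7.51% in these tables and 7.54% in RPE1* 21/3. Each share pools a line with its control, so these values do not bear on the copy number. The ratio to hsa-let-7a-5p was 19.8 to 23.1 in the HCT116 tables, and 10.8 in RPE1* 7/3, 14.5 in RPE1* 21/3 and 21.2 in RPE1 5/3 12/3.

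Other leading miRNAs differed more between the cell lines. The HOX cluster miRNA hsa-miR-10a-5p held 3.94% to 5.33% in the HCT116 tables, where hsa-miR-21-5p exceeded it 8.62-fold to 12.4-fold, but 0.298% to 0.772% in the RPE1 tables, with ratios of 43.2 to 132. For hsa-miR-7-5p the shares were 3.24% to 4.01% and 0.131% to 0.658%. In RPE1* 7/3 these still took the places 8 and 10. The reverse was seen for hsa-miR-30a-5p, with 3.00% to 4.20% in the RPE1 tables and 0.0149% to 0.380% in the HCT116 tables, where the highest value was that of HCT116* 3/3 c11. The first 10 places went to the same 10 miRNAs in all HCT116 tables, 7 miRNAs held such a place in all RPE1 tables, and 5 did so in all 7. These first 10 places made up 88.9% to 94.6% of the sum.

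The share of hsa-miR-21-5p was so high that all other listed miRNAs of a table together held 50.8% to 66.7%. The most abundant other miRNAs, added up in order, needed 40 members to reach its mean in HCT116* 3/3 c11, 35 in HCT116* 8/3 c7, 13 in HCT116 5/4 and 7 in HCT116 18/3 c2. In RPE1* 21/3 it took 4, in RPE1 5/3 12/3 it took 2, and in RPE1* 7/3 hsa-miR-100-5p alone sufficed. At the other end 69.8% to 81.3% of the other miRNAs had a share under 0.01% each, and these rare miRNAs summed to 0.274% to 0.339% of a table. The tables differ in how far down they list, from a lowest mean of 11.9 with 279 names in HCT116* 3/3 c11, which had the 69.8%, to one of 1.10 with 403 names in RPE1* 7/3, which had the 81.3%.

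The evenness of a table was expressed as the effective number of miRNAs, the number of equally abundant miRNAs that would have the same Shannon entropy. It was 7.40 to 7.97 in the HCT116 tables, and without hsa-miR-21-5p it rose to between 10.5 and 13.6. In the RPE1 tables it was 5.54 to 6.22 and without hsa-miR-21-5p it was 5.36 to 7.48. In RPE1* 7/3 it fell from 5.79 to 5.36 on removal, and hsa-miR-100-5p then took 63.2% of the remaining sum. By the inverse Simpson number, which weighs abundant miRNAs more, removal lowered the number in all 3 RPE1 tables.

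Summed by seed, hsa-miR-21-5p kept its places. With hsa-miR-590-5p added, the seed AGCUUAU held the first place in 6 tables. The seed ACCCGUA of hsa-miR-100-5p, with 3 listed members, held 21.1% to 27.9% in the HCT116 tables and 30.7% to 43.1% in the RPE1 tables, and came first in RPE1* 7/3. The let-7 seed GAGGUAG, with 8 or 9 listed members, followed these in every table with 9.75% to 13.3%. Names without a sequence, a let-7 name among them, were left as families of their own. These member counts and sums can therefore miss members. The contribution of hsa-miR-590-5p to the miR-21 seed was small. It lies in an intron of EIF4H on chromosome 7 (73605528 to 73605624, plus strand), and its means were 18.99 in HCT116 5/4, 7.75 in HCT116 18/3 c2, 6.63 in HCT116* 8/3 c7 and 5.19 in RPE1 5/3 12/3. In these tables hsa-miR-21-5p exceeded it 134379-fold to 688833-fold. In the other 3 tables it was not listed. The lowest listed mean was 11.9 in HCT116* 3/3 c11, but 4.67 in RPE1* 21/3 and 1.10 in RPE1* 7/3. Why it was not listed there was not tested. RPE1* 7/3, the line with an extra chromosome 7, is among these 3. Its table pools the line with its control, so this does not bear on the copy number.

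Set beside other miRNAs known as oncogenic, hsa-miR-21-5p was far higher. A list of such miRNAs, among them miR-17, miR-155, miR-221, miR-31 and miR-183, gave 20 listed names, of which 17 to 20 were listed per table. Their summed share was 3.12% to 4.28% in the HCT116 tables and 0.635% to 1.03% in the RPE1 tables, so that hsa-miR-21-5p exceeded the whole list 10.7-fold to 15.8-fold and 38.1-fold to 52.5-fold. The highest of the list by median share over all 7 tables were hsa-miR-183-5p, with means of 83168 to 166412 in HCT116 and 3421 to 9537 in RPE1 tables, and hsa-miR-182-5p, with 27193 to 50167 and 2971 to 4512. Within the RPE1 tables others were higher, namely hsa-miR-31-5p with 38499 in RPE1 5/3 12/3 and 25952 in RPE1* 21/3, and hsa-miR-155-5p with 20294 in RPE1* 7/3. Of the listed names of this group 0 were 3p arms, so the 3p arms of these hairpins, which are the main product of some, do not enter the sums.

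The listed tumour suppressive miRNAs were closer in sum. The list of the let-7 family, miR-34, miR-15/16, miR-143, miR-200, miR-29 and others gave 28 listed names, of which 23 to 28 were listed per table. It summed to 10.7% to 11.7% in the HCT116 tables and 12.8% to 14.7% in the RPE1 tables, and hsa-miR-21-5p exceeded it 4.04-fold to 4.23-fold and 2.43-fold to 3.06-fold. Its highest members were hsa-let-7i-5p and hsa-let-7a-5p. Of the listed names of this list 0 were 3p arms as well. The comparison with the oncogenic list thus also depends on which arms were listed.

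The share of hsa-miR-21-5p varied little between tables. The SD of its log2 share over the 7 tables was 0.20, against a median of 0.96 for the 204 other miRNAs listed everywhere. A smaller SD was found for 1 of the 204, hsa-miR-671-5p, at 0.18 with shares of 0.00791% to 0.0113%. Among the 54 others with a mean of at least 1000 in every table, 0 had a smaller SD, and their median was 0.74. A share near 50% leaves little room upwards, so the ratio of each miRNA to the sum of all others was used as well. This ratio was 50.01% to 96.7% for hsa-miR-21-5p with an SD of 0.34 on the log2 scale, and 5 of the 54 had a smaller one. The tables share control libraries in part, and the SD describes the spread over tables, not over replicates.

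**Figure D3:**
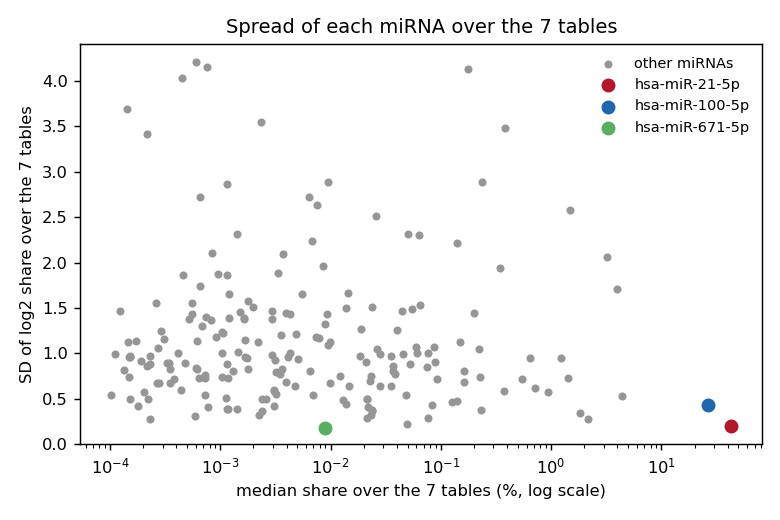
SD of the log2 share over the 7 tables (y axis) against the median share (x axis, %, log scale) for the 205 miRNAs listed in all tables, one point each. hsa-miR-21-5p lies at the lower right, with an SD of 0.20, and hsa-miR-671-5p alone lies below it.

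The miRNAs whose shares most resembled that of hsa-miR-21-5p over the 7 tables were sought among 99 others with a mean of at least 100 in every table, by Pearson's r of the log2 shares. The highest were hsa-miR-24-2-5p (r of 0.92), hsa-miR-186-5p (0.90), hsa-miR-185-5p (0.90), hsa-miR-548k (0.89) and hsa-miR-1287 (0.89). This choice depended on the setting, as 1 of the 5 was kept by Spearman's rho and 3 with a minimum mean of 10 or of 1000. Of the 99, 76 had an r above 0 and the median was 0.57, so a positive r was usual. The one r under -0.9 was that of hsa-miR-100-5p. The shares of hsa-miR-24-2-5p ran from 0.0205% to 0.0249% in the HCT116 tables and from 0.0149% to 0.0227% in the RPE1 tables, with an SD of 0.29. For hsa-miR-185-5p they ran from 0.0371% to 0.0474% and from 0.0122% to 0.0188%, with an SD of 0.80. The spread over the tables was thus nearer to that of hsa-miR-21-5p for hsa-miR-24-2-5p than for hsa-miR-185-5p.

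What a change in so abundant a miRNA means for the other levels was worked out from the shares. On any scale with a fixed total, such as CPM, the share of every other miRNA is multiplied by 1/(1 + s(f - 1)) when a miRNA of share s changes f-fold and nothing else does. For a 2-fold rise of hsa-miR-21-5p, the share of every other miRNA would change by -0.42 on the log2 scale at the share of RPE1* 7/3 and by -0.58 at that of HCT116* 3/3 c11. At the latter its own share would rise 1.34-fold in place of 2-fold. For a 1.5-fold rise the others would change by -0.22 to -0.32, and a drop to 0.5-fold would raise them by 0.26 to 0.41 on the log2 scale. A 2-fold rise of hsa-let-7i-5p would change the others by only -0.05 to -0.10. These are calculated values and not measured changes.

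**Figure D4:**
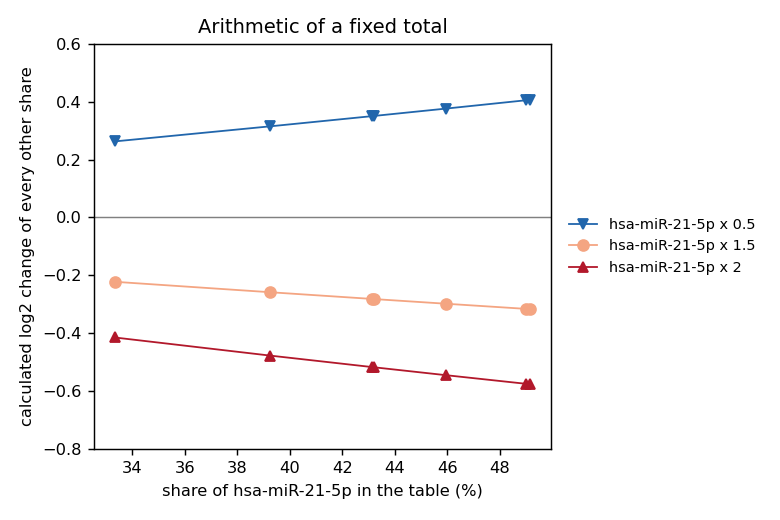
Calculated log2 change of the share of every other miRNA (y axis) if hsa-miR-21-5p alone changed 0.5-fold, 1.5-fold or 2-fold on a scale with a fixed total, against its share in each of the 7 tables (x axis, %). The values for a 2-fold rise run from -0.42 at 33.3% to -0.58 at 49.2%.

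The same arithmetic bears on the comparison of tables. The share left to all other miRNAs was 1.31 times higher in RPE1* 7/3 than in HCT116* 3/3 c11, which is -0.39 on the log2 scale for the latter over the former. This was not so for the miRNAs other than hsa-miR-100-5p, which was itself higher in RPE1* 7/3. Both leading miRNAs together left 24.5% to the rest in RPE1* 7/3 and 31.3% in HCT116* 3/3 c11, so the order was the opposite one. Taking hsa-miR-21-5p out of the sum raises every log2 ratio of HCT116 over RPE1 medians by construction, its share being higher in the HCT116 tables. Over the 204 other miRNAs the median of the single rises was 0.18. The median log2 ratio itself, a separate statistic, was 0.96 with hsa-miR-21-5p in the sum and 1.11 without it. Size factors of the median-of-ratios kind, as the authors used within a table, weigh every miRNA once whatever its abundance, and are not a fixed total in this sense.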

How the data were processed

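Total RNA with small RNAs was made into TruSeq small RNA libraries by the authors and sequenced as single reads. Before deposit the authors clipped adapters (cutadapt) after a quality trim, then aligned to hg19 and quantified miRBase miRNAs by mirdeep2. The deposited signal used here is the authors' mean of counts divided by DESeq2 size factors (version not stated) over the 6 libraries of a line and its control. In 3 of the 7 comparisons the authors' model paired the replicates. The tables also hold the authors' own comparisons (log2 fold change, its standard error, test statistic, p-value and adjusted p-value of line against control), which were neither used nor compared with. Values per library were not used, so no count model was fitted and no line was tested against its control.

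Shares, ratios, effective numbers and correlations were computed with Python 3.11.15, numpy 2.4.6 and pandas 2.3.3, and the code was tested on simulated tables. A value under another setting was called moved where it changed by 10% or more, a limit set here because means without replicates or depth give no error. Filters on the mean are given beside each result. Positions come from GENCODE 44 on GRCh37, the assembly of hg19, and the RefSeq hairpin of MIR21 (GRCh38.p14) was identical to the GRCh37 bases. RefSeq (GRCh38.p14) gave mature sequences but no printed position. By the rule, named miRNAs were hsa-miR-21-5p, those with its seed, those in the first 5 places of a table, the 5 most alike and the highest 2 of each list. Outside this rule hsa-miR-194-5p, hsa-miR-200a-5p and hsa-miR-215 were named from the marker list, and hsa-miR-31-5p, hsa-miR-155-5p, hsa-miR-671-5p, hsa-miR-4639-5p and the miRNAs that turned direction were named after their values were seen. The member and the lists were chosen with earlier results of these data known.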

Additional observations from a re-analysis of the deposited data

How the results depend on the processing

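A filter at a mean of at least 10 and a restriction to the miRNAs listed in all 7 tables moved the 7 shares of hsa-miR-21-5p by at most 0.180 percentage points, and the second put the difference between the HCT116 and RPE1 medians at 8.22 points. Without the most abundant other miRNA in the sum the share was higher by construction, with 57.6% for RPE1* 7/3, 58.9% for HCT116 18/3 c2, 59.2% for HCT116 5/4, 61.1% for HCT116* 3/3 c11, 61.5% for RPE1* 21/3, 61.7% for HCT116* 8/3 c7 and 62.9% for RPE1 5/3 12/3. The difference between the medians of the cell lines was 6.26 to 11.2 points when single tables were left out in turn, lowest without RPE1* 7/3 and highest without RPE1* 21/3. With a single table for the HCT116* controls it was 5.31 points by HCT116 18/3 c2, 8.28 by HCT116* 3/3 c11 and 8.20 by HCT116* 8/3 c7. Summing by seed kept the ratio to the next miRNA within 10% in all 7 tables. Inverse Simpson numbers were lower throughout, at 2.40 to 5.67, and by them the removal of hsa-miR-21-5p lowered the number in all 3 RPE1 tables, to 2.48 in RPE1 5/3 12/3, from 3.37 to 2.40 in RPE1* 7/3 and from 3.51 to 3.27 in RPE1* 21/3, whereas by Shannon entropy it did so only in RPE1* 7/3. Of the 5 most alike miRNAs, 5 were also the most alike by the share of the sum without hsa-miR-21-5p, 3 with a minimum mean of 10, 3 with one of 1000 and 1 by Spearman's rho. No paired analysis was possible because the values used are means over the 6 libraries of a table and carry no replicate numbers, and for the same reason no single library could be left out.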

Other observations

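For 9 of the 204 other miRNAs listed in all tables, the direction of the difference between the HCT116 and the RPE1 medians depended on whether hsa-miR-21-5p was part of the sum. With it their shares were lower in the HCT116 tables, and without it they were higher. The largest of these differences with hsa-miR-21-5p in the sum was that of hsa-miR-221-5p, which went from -0.19 to 0.08 on the log2 scale. It was -0.17 and 0.09 for hsa-miR-361-5p. For hsa-miR-30b-5p it was -0.05 and 0.20, and for hsa-miR-181c-5p it was -0.13 and 0.12. The other 5 were hsa-miR-106a-5p, hsa-miR-181d, hsa-miR-194-5p, hsa-miR-3913-5p and hsa-miR-664a-5p. The positive values ran from 0.07 to 0.20.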
